A study of Mus musculus with 11 samples.

Results

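The genes described are the zinc-dependent histone deacetylases of the mouse, taken by symbol from a list of 10 (Hdac1, Hdac2, Hdac3, Hdac4, Hdac5, Hdac6, Hdac7, Hdac8, Hdac9 and Hdac11). A gene's probe sets were those annotated with exactly 1 symbol, and 9 of the 10 genes were measured, by 182 of the 179496 probe sets that carry 1 symbol, among 15803 genes in all. No probe set carried the symbol Hdac1, so that gene was not analysed here. RNA was taken from NSC34, a mouse line made by fusing neuroblastoma with embryonic spinal cord cells, and measured on 11 Affymetrix whole-transcript arrays. In the 4 shTardbp arrays the cells carried a pSUPERIOR hairpin vector directed at Tardbp, which encodes TDP-43, an RNA-binding protein. In the 4 shGFP arrays the hairpin was against GFP, and in the 3 shLuciferase arrays it was built from a Renilla sequence. Cells of all 3 groups had been transfected with Lipofectamine 2000 and selected with puromycin as stable clones. The labels do not say how many clones or cultures stand behind the arrays of a group, so the p-values reflect array-to-array spread, which may be technical, and a difference between clones cannot be told apart from an effect of the hairpin. Values are log2 expression values of a gene, each the mean of its probe sets, and levels of different genes are not set against each other. In bulk RNA, fewer cells of a kind and less RNA per cell cannot be told apart. The number of arrays limits the precision.

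Histone deacetylases remove acetyl groups from lysines of histones and of other proteins. The class I enzymes Hdac1, Hdac2, Hdac3 and Hdac8 are mostly nuclear, and all but Hdac8 work inside corepressor complexes such as NuRD, Sin3, CoREST and NCoR. The class IIa enzymes Hdac4, Hdac5, Hdac7 and Hdac9 shuttle between nucleus and cytoplasm under the control of calcium-dependent kinases and repress genes bound by MEF2 factors. Hdac6, of class IIb, is a cytoplasmic enzyme that deacetylates alpha-tubulin and cortactin and carries misfolded ubiquitinated proteins towards aggresomes, and Hdac11 is the sole member of class IV. Hdac6 mRNA is of interest here because earlier work in human cell lines reported that TDP-43 binds it and that silencing TDP-43 lowers it.

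The sequence that the Tardbp hairpin targets is shown first because it defines the shTardbp cells. The promoter windows of the members with the largest fall and the largest rise, Hdac9 and Hdac11, follow. Each window holds 300 bases around a transcript start in RefSeq (GRCm38.p6), most of them upstream, and capitals mark matches to the motifs named below. The hairpin target comes from the labels and carries no capitals.
Hairpin target in Tardbp (chromosome 4): tctaagcaaagccccagacgagcct
Hdac9 first start, minus strand, chr12:34917046-34917345: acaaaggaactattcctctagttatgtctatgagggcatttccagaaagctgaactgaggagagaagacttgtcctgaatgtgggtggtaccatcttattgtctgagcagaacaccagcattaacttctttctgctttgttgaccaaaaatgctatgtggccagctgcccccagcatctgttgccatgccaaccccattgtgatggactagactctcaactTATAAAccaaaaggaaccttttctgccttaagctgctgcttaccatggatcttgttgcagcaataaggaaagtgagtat
Hdac9 second start, minus strand, chr12:34528840-34529139: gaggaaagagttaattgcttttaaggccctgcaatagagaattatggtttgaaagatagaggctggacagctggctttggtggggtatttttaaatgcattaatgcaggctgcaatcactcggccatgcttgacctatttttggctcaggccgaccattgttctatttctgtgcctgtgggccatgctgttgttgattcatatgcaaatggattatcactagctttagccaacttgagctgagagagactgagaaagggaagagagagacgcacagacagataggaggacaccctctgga
Hdac11, plus strand, chr6:91156565-91156864: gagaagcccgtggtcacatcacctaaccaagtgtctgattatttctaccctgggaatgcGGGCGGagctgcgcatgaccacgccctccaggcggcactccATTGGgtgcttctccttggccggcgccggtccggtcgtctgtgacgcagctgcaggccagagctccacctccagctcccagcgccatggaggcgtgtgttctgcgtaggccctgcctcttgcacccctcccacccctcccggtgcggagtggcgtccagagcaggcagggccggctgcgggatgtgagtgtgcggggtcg

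The 2 Hdac9 windows are poor in CpG, with 0 and 3 CpG dinucleotides and 44.0% and 45.3% G and C. The Hdac11 window has 22 CpG dinucleotides and 66.7% G and C. Windows on chromosome 18, where Hdac3 lies, were left out, so Hdac3 was not searched. Windows of 8 other members, 12 in all, were searched on both strands. The motifs were the CCAAT box (CCAAT), the TATA box (TATAAA), the GC box (GGGCGG) and the E-box (CACGTG). The cAMP response element (TGACGTCA) and the MEF2 site were searched as well. The first Hdac9 window holds a TATA box, which 13.6% of all 32851 windows hold, and the second holds none of these motifs. The Hdac11 window holds 1 CCAAT box, read on the opposite strand, and 1 GC box, found in 37.4% and 35.7% of windows. Only the Hdac5 window of the 12 has a MEF2 site (0.557% of all windows) or an E-box (7.15%). None of the 12 has a cAMP response element (1.79%). A match describes these letters and not a bound site.

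Of the whole series, array medians lay between 6.82 and 6.92. Tardbp was at 8.82, 8.80, 8.997 and 8.91 in shTardbp, against 9.25, 9.08, 9.36 and 9.42 in shGFP and 9.29, 9.38 and 9.20 in shLuciferase. All 4 shTardbp arrays were lower than all 7 controls (log2 change -0.40, SE 0.0722, limma adjusted p = 0.000713; exact two-sided permutation p = 0.00303, the smallest that 330 splits allow). In a fit that blocks on the array codes described below, the Tardbp call was lost (-0.29, adjusted p = 0.173). Of 21 measured motor neuron and neuronal markers, 17 were above the array's 25th percentile (4.46 to 4.57) on all 11 arrays, among them the vesicular acetylcholine transporter Slc18a3 and peripherin (Prph), while 4 were below it on all 11. The choline acetyltransferase gene Chat was at 4.28 to 4.49 in shTardbp, 4.13 to 4.36 in shGFP and 4.11 to 4.22 in shLuciferase, and Mnx1 at 4.05 to 4.14 in shTardbp, 3.88 to 4.16 in shGFP and 4.06 to 4.14 in shLuciferase. Chat and Mnx1, which are defining motor neuron markers, were not shown to be present. Isl1, a motor neuron factor of the same list, was at 7.77 to 8.39 in shTardbp. Its range was 8.57 to 8.74 in shGFP and 7.39 to 7.74 in shLuciferase. Lhx3 lay just above the 25th percentile, between 4.73 and 5.02 over all 11 arrays. The neuronal list averaged 8.23 to 8.39 in shTardbp, 8.10 to 8.21 in shGFP and 8.16 to 8.19 in shLuciferase, and the list for glia, microglia, fibroblast, muscle, epithelium and endothelium averaged 4.93 to 5.09 in shTardbp, 4.99 to 5.04 in shGFP and 4.94 to 5.05 in shLuciferase. Of the 26 measured markers of those other cells, 16 were above the 25th percentile on all 11 arrays and 4 below it on all 11. That percentile is taken over all probe sets and is not a detection limit, so these counts do not settle presence or absence. Codes in the labels open with P for the shTardbp arrays and shLuciferase 4, and with C for the other 6. What the letters stand for is not given. A fit with the letter as a block rests on shLuciferase 4 alone to separate letter from hairpin, and its value against shLuciferase equals the difference from that single array.

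**Figure D1:**
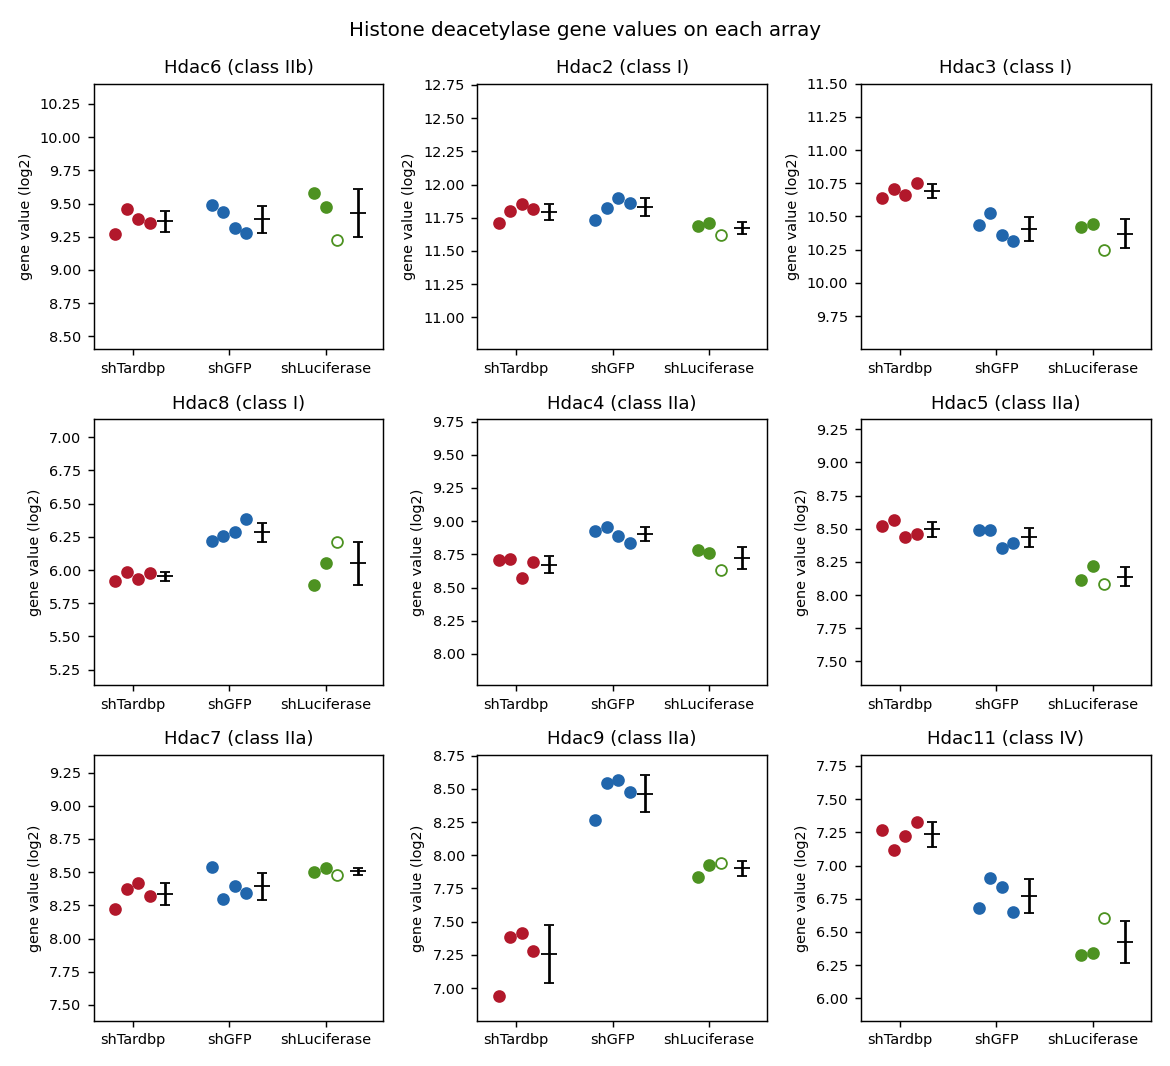
Gene values (log2, 1 point per array) of the 9 measured histone deacetylases in shTardbp, shGFP and shLuciferase. Black bars are mean ± SD, each panel spans 2 log2 units, and the open point is shLuciferase 4, whose array code opens with P as those of the shTardbp arrays do. Hdac9 is lower and Hdac3 and Hdac11 are higher in all 4 shTardbp arrays than in all 7 controls.

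Against both controls, 5 of the 9 deacetylase genes passed the threshold (limma, adjusted p under 0.05 over all genes), where 30.5% of all genes did. Hdac3, Hdac5 and Hdac11 were higher in shTardbp (13.5% of all genes were) and Hdac8 and Hdac9 lower (17%). Of genes above the median level 46.8% passed, and 8 of the 9 deacetylases lie above it with 4 passing, a share close to that background. In 3 of the 9 the shTardbp arrays lay wholly to one side of all 7 controls, as in 18.3% of all genes. The median log2 change of the 9 was -0.038, beside 0.0072 over all genes, and the median absolute change 0.21 beside 0.113. All 9 genes exceeded the 25th percentile on all 11 arrays.

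Hdac6, the reported TDP-43 target, was not distinguishable from the controls. In the same arrays the Tardbp signal was still 75.8% of the control signal (95% confidence interval 68.0 to 84.4). The arrays do not measure TDP-43 protein, so the comparison is one under a partial fall of Tardbp RNA. Hdac6 stood at 9.27, 9.46, 9.39 and 9.35 in shTardbp, against 9.49, 9.44, 9.31 and 9.28 in shGFP and 9.58, 9.48 and 9.23 in shLuciferase. The 3 groups overlap, and the lowest value of all belongs to shLuciferase 4. The log2 change was -0.038 (SE 0.0743, adjusted p = 0.795), with a 95% confidence interval of -0.198 to 0.122. On the linear scale this is 97.4% of the control signal (87.2 to 108.8), so a fall below 87.2% lies outside the interval, while smaller changes in either direction do not. An exact permutation test (two-sided) gave p = 0.639. Against shGFP alone the change was -0.014 (SE 0.0835, adjusted p = 0.94) and against shLuciferase -0.062 (SE 0.0902, adjusted p = 0.732). The comparisons share the shTardbp arrays. Blocking on the code letter turned the sign (0.21, adjusted p = 0.248). On the P arrays the 4 shTardbp values averaged 0.14 above the 9.23 of shLuciferase 4.

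The 32 probe sets of Hdac6 showed no common direction. Their log2 changes ran from -0.38 to 0.13 with a median of -0.024, 12 were positive and 20 negative, and no probe set passed the test of usage, which asks whether a probe set moved differently from the rest of its gene (lowest adjusted p = 0.561). Probe set 5364588 had the change farthest from 0. It was at 9.46, 9.66, 9.30 and 8.33 in shTardbp, against 9.51, 9.33, 9.49 and 9.48 in shGFP and 9.84, 9.82 and 9.38 in shLuciferase, so that shTardbp 4 by itself is low and the other 3 arrays lie among the controls. By the root mean square difference of centred values over the 11 arrays, the genes with the pattern most like that of Hdac6 were Ly6h (0.0494), Coro1c (0.0577), Ndufb5 (0.0580), Wdr24 (0.0584) and Cope (0.0594), out of 5001 genes of similar spread. They were selected on these same values, so their likeness is a description.

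Hdac9, a class IIa enzyme and MEF2 corepressor, had the largest change of the 9. It was at 6.94, 7.38, 7.41 and 7.28 in shTardbp, against 8.26, 8.55, 8.57 and 8.48 in shGFP and 7.83, 7.92 and 7.94 in shLuciferase. The 3 groups do not overlap: shTardbp is lowest, shLuciferase lies between, and shGFP is highest. The log2 change against both controls was -0.93 (SE 0.0910, adjusted p = 4.68e-06), a level 52.6% of the control signal (95% confidence interval 45.9 to 60.2). The size depended on the control, at -1.21 (SE 0.102, adjusted p = 1.47e-06) against shGFP and -0.65 (SE 0.110, adjusted p = 0.000613) against shLuciferase. The controls themselves differed by 0.56 (SE 0.110, adjusted p = 0.00443), shGFP being higher. Blocked on the letter it was -0.98 (adjusted p = 0.00329), and every shTardbp value was under that of shLuciferase 4 (7.94).

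All 12 probe sets of Hdac9 were lower in shTardbp than in the mean of both controls, but not to the same extent. Changes ran from -1.38 to -0.16 with a median of -1.09. Probe set 5242661, with the largest fall, was at 6.25, 6.76, 7.56 and 7.31 in shTardbp, against 8.25, 8.67, 8.98 and 8.54 in shGFP and 7.78, 8.13 and 8.35 in shLuciferase. Probe set 5261737 was at 6.26, 6.54, 6.68 and 6.28 in shTardbp, against 6.53, 7.19, 6.80 and 7.0004 in shGFP and 6.22, 6.45 and 6.34 in shLuciferase. Its groups overlap, and its shTardbp values (6.26 to 6.68) were not lower than those of shLuciferase (6.22 to 6.45). Relative to the rest of the gene, probe set 5261737 was higher in shTardbp by 0.83 on the log2 scale (SE 0.107, adjusted p = 0.00366). Probe set 5615439 also moved little (-0.16), with a usage difference of 0.84 that did not pass (SE 0.198, adjusted p = 0.071). Of the 12 probe sets, 5261737 had the lowest mean level (6.57) and 5615439 the highest (11.21). The part of probe set level in these usage differences was not tested. Hdac9 transcripts are known to include a short form, MITR, which lacks the catalytic domain. Because positions of probe sets were not used, neither can be assigned to a form or an exon. The call for probe set 5261737 was lost with the letter as a block (adjusted p = 0.126).

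The genes whose pattern over the 11 arrays was most like that of Hdac9 were Arhgap18 (root mean square difference 0.128, log2 change -1.08), the mitochondrial acyl-CoA dehydrogenase Acadl (0.134, -0.91), the deubiquitinase Usp44 (0.138, -0.77), the homeobox factor Pbx3 (0.139, -0.90) and 4930452B06Rik (0.142, -1.08), out of 561 genes of similar spread. The 5 were selected on these same values, so their changes are a description.

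Hdac11, the class IV enzyme, had the largest rise. It stood at 7.27, 7.11, 7.22 and 7.33 in shTardbp, against 6.68, 6.91, 6.84 and 6.65 in shGFP and 6.33, 6.34 and 6.61 in shLuciferase. All shTardbp arrays are above all controls, and shLuciferase is below shGFP with no overlap. The change against both controls was 0.64 (SE 0.0761, adjusted p = 2.48e-05), or 1.56-fold. It was 0.47 (SE 0.0856, adjusted p = 0.000924) against shGFP and 0.81 (SE 0.0924, adjusted p = 2.56e-05) against shLuciferase. The controls differed by 0.34 (SE 0.0924, adjusted p = 0.0288), a call that ended when shGFP 2, shGFP 3, shLuciferase 1 or shLuciferase 2 was left out (0.0689 to 0.125). With the letter as a block the rise was 0.41 (adjusted p = 0.0447), and 0.19 against shGFP (adjusted p = 0.444). Combining probe sets by their median also ended the call against shGFP (0.48, adjusted p = 0.0567) and the one between the controls (0.41, adjusted p = 0.242).

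The 9 probe sets of Hdac11 were all higher in shTardbp, by 0.068 to 1.06 with a median of 0.70. Probe set 5484851, with the largest rise, was at 8.27, 8.07, 7.60 and 7.91 in shTardbp, against 7.06, 7.69, 7.42 and 6.81 in shGFP and 6.24, 6.44 and 6.97 in shLuciferase, with overlap between shTardbp and shGFP. Probe set 5094085 moved least and had the highest mean level of the 9 (8.88). It was at 9.14, 8.76, 9.09 and 8.69 in shTardbp, against 8.97, 8.89, 8.79 and 8.97 in shGFP and 8.85, 8.53 and 8.9975 in shLuciferase. Its usage was lower in shTardbp by 0.71 on the log2 scale (usage difference -0.71, SE 0.146, adjusted p = 0.0394). That call was lost in 13 of 17 alternatives, with 9 of the 11 arrays left out singly among them, all but shGFP 2 and shGFP 3 (adjusted p = 0.0446 to 0.321 over the 17). One probe set of the 9 lay below the 25th percentile of mean level and did not enter the usage test.

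**Figure D2:**
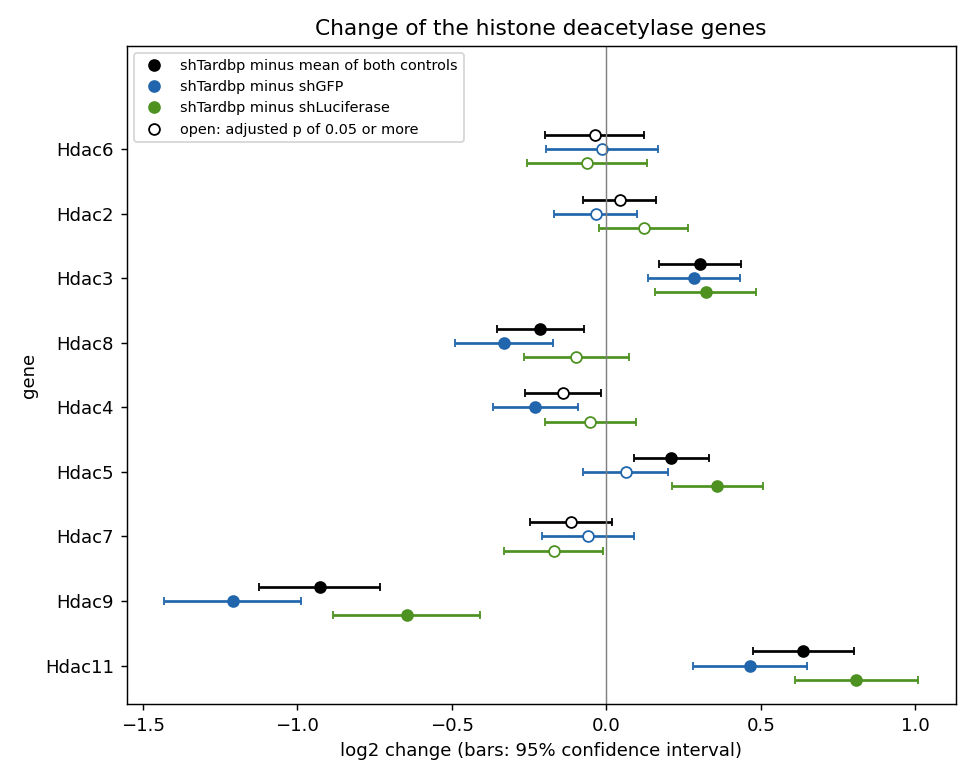
Log2 change of each deacetylase gene in shTardbp against the mean of both controls (black), shGFP (blue) and shLuciferase (green), with 95% confidence intervals. Filled points have an adjusted p under 0.05. The comparisons share the shTardbp arrays. Hdac3, Hdac9 and Hdac11 are filled in all 3, at 0.30, -0.93 and 0.64 against both controls, and the Hdac6 intervals span 0.

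Among the class I enzymes, Hdac3 was higher in shTardbp together with its chromosomal surroundings. Hdac3 is the catalytic subunit of the NCoR and SMRT complexes. It was at 10.64, 10.71, 10.66 and 10.76 in shTardbp, against 10.43, 10.52, 10.36 and 10.31 in shGFP and 10.42, 10.44 and 10.25 in shLuciferase. The shTardbp arrays lie above all controls, and the controls overlap. The change was 0.30 (SE 0.0620, adjusted p = 0.00187), or 1.23-fold, with 0.28 (SE 0.0697, adjusted p = 0.007) against shGFP and 0.32 (SE 0.0753, adjusted p = 0.0057) against shLuciferase. Of its 16 probe sets 15 were higher (changes from -0.15 to 0.48, median 0.33).

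Of the 40 measured genes nearest to Hdac3 on chromosome 18, 20 on each side, 21 were higher and 0 lower in shTardbp, with a median change of 0.32. The 4 nearest all passed: the protocadherins Pcdhgb8 (0.66) and Pcdhga12 (0.58) on one side, and Rell2 (0.20, SE 0.0696, adjusted p = 0.0447, lost in most fits that left out 1 array) and Fchsd1 (0.35) on the other. Of the 40, 20 are protocadherins, whose clustered genes share sequence. Without them, 8 of 20 neighbours were higher, 0 lower, and the median was 0.18. When the neighbours' shift was subtracted on each array before the fit, the change of Hdac3 became -0.0049 (adjusted p = 0.968), and with protocadherins left out of the neighbours it was 0.089 (adjusted p = 0.387). With the letter as a block Hdac3 was at 0.46 (adjusted p = 0.0118), and the calls of the 4 nearest genes were lost.

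Around Hdac9, 1 of 40 neighbours was higher and 11 lower, with a median of -0.026. Over all genes 13.5% were higher and 17% lower. None of the 4 nearest to Hdac9 passed (changes from -0.16 to 0.045). The next genes on 1 side, Twistnb (-0.42) and Atxn7l1 (-0.84), were lower and passed. On the other side the next genes, Ahr (-0.020) and Agr3 (0.11), did not pass. Around Hdac11, 3 were higher and 10 lower, with a median of -0.012, opposite in sign to the change of Hdac11 itself. With the neighbours' shift subtracted, Hdac5, Hdac8, Hdac9 and Hdac11 kept their calls and Hdac3 lost its call.

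**Figure D3:**
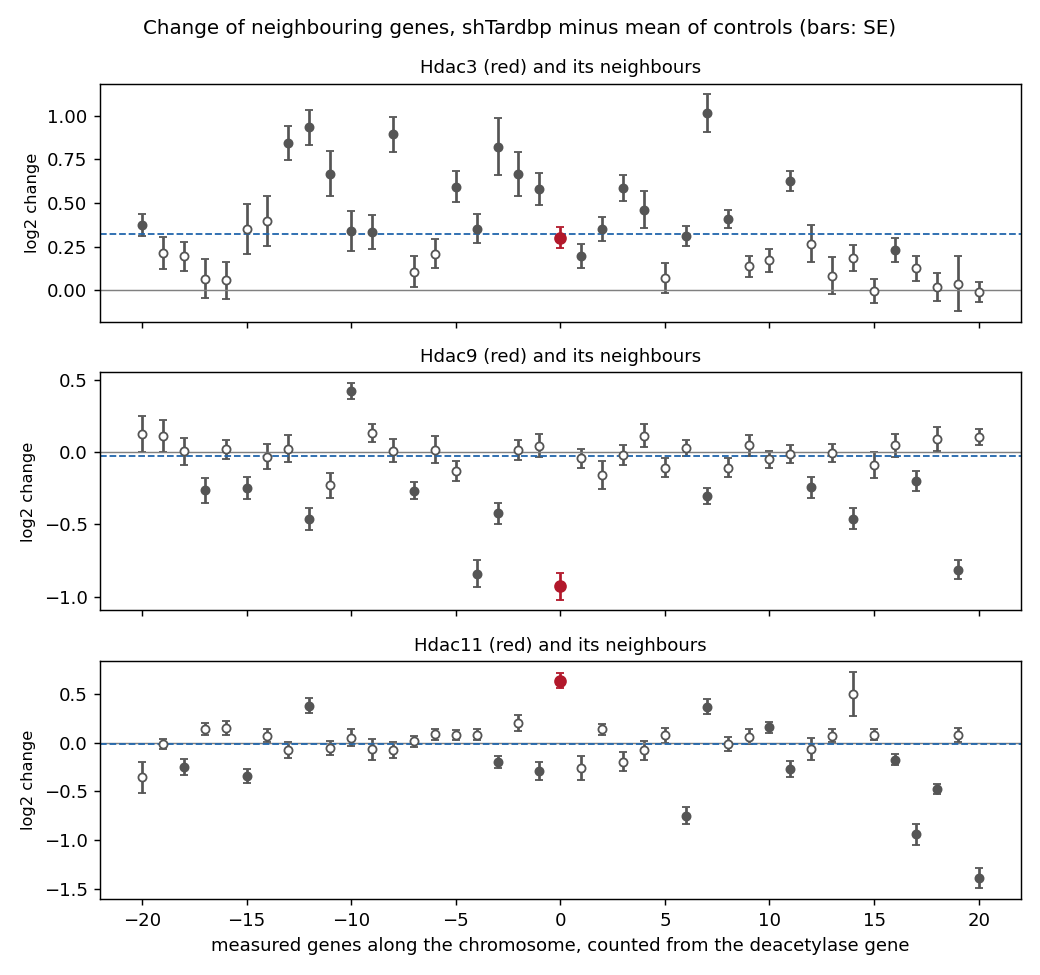
Log2 change (shTardbp minus the mean of both controls, bars SE) of Hdac3, Hdac9 and Hdac11 (red) and of the 20 measured genes on each side, in chromosomal order. Filled points passed the threshold and the dashed line is the neighbours' median. Hdac3 lies near the median of its 40 neighbours (0.32, or 0.18 over the 20 that are not protocadherins), while Hdac9 and Hdac11 lie away from theirs (-0.026 and -0.012).

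Hdac2, the class I partner of Hdac1 in NuRD, Sin3 and CoREST, did not pass. It was at 11.71, 11.80, 11.85 and 11.82 in shTardbp, 11.74, 11.83, 11.90 and 11.86 in shGFP and 11.69, 11.71 and 11.62 in shLuciferase. The shTardbp arrays overlap both controls, and the change was 0.043 (SE 0.0553, 95% confidence interval -0.0764 to 0.162, adjusted p = 0.666). Its 17 probe sets changed by -0.16 to 0.17.

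Hdac8, a class I enzyme that acts on the cohesin subunit Smc3, was lower against shGFP and against both controls together. It was at 5.92, 5.98, 5.93 and 5.98 in shTardbp, against 6.22, 6.26, 6.28 and 6.38 in shGFP and 5.89, 6.06 and 6.21 in shLuciferase. The shTardbp arrays lie below all shGFP arrays and overlap shLuciferase. The change was -0.21 (SE 0.0653, adjusted p = 0.0222) against both controls, -0.33 (SE 0.0733, adjusted p = 0.00351) against shGFP and -0.097 (SE 0.0792, adjusted p = 0.463) against shLuciferase. The difference between the controls themselves did not pass (0.23, SE 0.0792, adjusted p = 0.08). The call against both controls ended without shTardbp 1 (adjusted p = 0.0611), without shTardbp 3 (0.0629) and when probe sets were combined by their median (0.15), which also ended the call against shGFP (0.0538). With the letter as a block the value was larger, -0.41 (adjusted p = 0.0189). The value against shLuciferase rested on single arrays, at -0.018 without shLuciferase 4 and -0.18 without shLuciferase 1, and did not pass in either case.

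Hdac5, a class IIa enzyme known for its export from the nucleus after neuronal activity or axon injury, was higher against shLuciferase and against both controls together. It was at 8.52, 8.56, 8.44 and 8.46 in shTardbp, against 8.49, 8.49, 8.36 and 8.39 in shGFP and 8.11, 8.22 and 8.08 in shLuciferase. The shTardbp and shGFP arrays overlap, and both lie above shLuciferase. The change was 0.21 (SE 0.0566, adjusted p = 0.011) against both controls, 0.062 (SE 0.0636, adjusted p = 0.578) against shGFP and 0.36 (SE 0.0687, adjusted p = 0.00141) against shLuciferase. The controls differed by 0.30 (SE 0.0687, adjusted p = 0.0124), a call that ended without shLuciferase 1 (0.055) and when probe sets were combined by their median (0.117). The call against both controls ended with the letter as a block (0.28, adjusted p = 0.0894). Of its 32 probe sets 31 were higher in shTardbp than in the mean of the controls. Against shGFP alone they went in both directions, with changes from -0.16 to 0.28.

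Hdac4 passed against shGFP and not against shLuciferase. This class IIa enzyme, induced in muscle after loss of the nerve, was at 8.70, 8.71, 8.57 and 8.69 in shTardbp, against 8.93, 8.96, 8.89 and 8.83 in shGFP and 8.78, 8.76 and 8.63 in shLuciferase. It fell against shGFP (-0.23, SE 0.0638, adjusted p = 0.0146), with no overlap, and not past the threshold against shLuciferase (-0.051, SE 0.0689, adjusted p = 0.702) or both controls (-0.14, SE 0.0568, adjusted p = 0.0811). Between the controls Hdac4 was higher in shGFP, as Hdac5 was, by 0.18 (SE 0.0689, adjusted p = 0.13), which did not pass. The call against shGFP ended without shTardbp 3 (0.058), when probe sets were combined by their median (0.147) and with the letter as a block (0.672). Without shLuciferase 4 the change against both controls passed (-0.16, adjusted p = 0.0352), as it did with array weights (-0.18, adjusted p = 0.0117). Of its 26 probe sets 22 were lower.

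Hdac7, the class IIa enzyme best known from thymocytes and endothelium, did not pass in any comparison. It was at 8.22, 8.37, 8.42 and 8.32 in shTardbp, 8.54, 8.30, 8.40 and 8.35 in shGFP and 8.50, 8.53 and 8.48 in shLuciferase. The shTardbp arrays overlap shGFP and lie below the 3 shLuciferase arrays. The change was -0.12 (SE 0.0614, 95% confidence interval -0.248 to 0.0169, adjusted p = 0.197). Of its 26 probe sets 22 were lower. Probe set 5094554 had the largest difference in usage (-0.49, SE 0.122, adjusted p = 0.0859), which did not pass.

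Against shGFP, 5 of the 9 genes passed (27.9% of all genes did), Hdac3 and Hdac11 higher (12.4%) and Hdac4, Hdac8 and Hdac9 lower (15.5%). Against shLuciferase 4 passed (26.1%), Hdac3, Hdac5 and Hdac11 higher (11.8%) and Hdac9 lower (14.3%). Between the controls 3 passed (11.1%): Hdac5, Hdac9 and Hdac11 were all higher in shGFP (6.26%), and 0 were lower (4.82%). The comparisons share arrays, so their counts are not independent. Hdac10, the other class IIb enzyme, is not one of the 10 listed genes and was added after its values were seen. It had a log2 change of 0.05 (SE 0.106, adjusted p = 0.811, 20 probe sets).

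**Figure D4:**
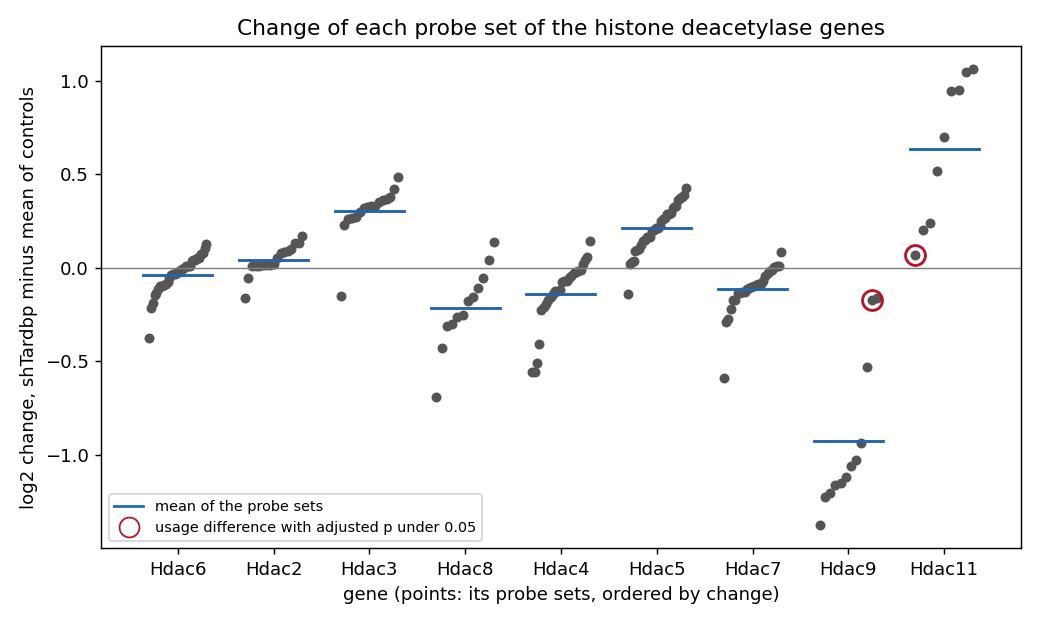
Log2 change of each probe set (1 point) of the 9 genes in shTardbp minus the mean of both controls, ordered within a gene, with the gene's mean as a blue line. Red rings mark the 2 probe sets whose usage passed. All 12 Hdac9 probe sets lie below 0 and all 9 Hdac11 probe sets above it, with the ringed ones near 0.

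Over all 9 genes, 2 of the 181 probe sets tested for usage passed, or 1.10%, where 1.42% of all 132077 probe sets did. Those 2 are the Hdac9 and Hdac11 probe sets given above. In the other genes the largest usage differences were those of probe set 4417498 of Hdac2 (-0.22, adjusted p = 0.334), 5498758 of Hdac3 (-0.48, adjusted p = 0.132), 4366135 of Hdac4 (-0.44, adjusted p = 0.349), 4629996 of Hdac5 (-0.36, adjusted p = 0.196) and 4860419 of Hdac8 (-0.52, adjusted p = 0.216). None of these passed.

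The lists of partner genes give the setting of these changes. Over all partner lists, 65 of 159 measured genes passed (40.9%), 34 higher and 31 lower, and 142 of the 159 lie above the median level, where 46.8% of genes passed. The share is therefore not above that background. With the letter as a block 37 passed, and 42 when a gene's value was the median over its probe sets. The letter block lowered the number passing over all 15803 genes as well, from 4825 to 2509.

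In NuRD, the nucleosome remodelling complex that holds Hdac1 and Hdac2, 4 of 11 genes were higher and 2 lower (median 0.11). The remodelling helicases Chd3 (log2 change 0.44, SE 0.0732) and Chd4 (0.44, SE 0.0821) and the methyl-CpG binding protein Mbd2 (0.35, SE 0.0626) rose, and the subunit Gatad2a fell (-0.27, SE 0.0535), with adjusted p at most 0.00137. In the Sin3 complex 4 of 16 were higher and 4 lower (median 0.024). The subunits Sap30 (-0.68, SE 0.110) and Brms1l (-0.45, SE 0.0711) fell, while the H3K4 demethylase Jarid1a, now Kdm5a (0.59, SE 0.102), and the scaffold Sin3b (0.35, SE 0.0670) rose.

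In CoREST 4 of 14 were higher and 1 lower (median 0.062). Zmym2 (0.37, SE 0.0604), Phf21a (0.32, SE 0.0563) and the demethylase Aof2, now Kdm1a (0.23, SE 0.0641, adjusted p = 0.0146), rose and Zmym3 fell (-0.28, SE 0.0600). The Aof2 call ended without shTardbp 3 (adjusted p = 0.0567) and without shTardbp 4 (0.0575). Of the 8 measured NCoR, SMRT and MiDAC genes, 1 passed, Trerf1 (0.20, SE 0.0514, adjusted p = 0.00948; median 0.097). The corepressor Ncor1, which activates Hdac3, was at 0.12 (adjusted p = 0.144), Dnttip1 at -0.15 (0.151) and Zbtb33 at 0.25 (0.175). Zbtb33 passed with array weights (adjusted p = 0.0099) and without shLuciferase 4 (0.0294), and was at -0.21 with the letter as a block. With the letter as a block Gatad2a, Sap30, Zmym2, Phf21a, Zmym3, Aof2 and Trerf1 lost their calls, and by the median of probe sets Zmym3 (0.117) and Aof2 (0.123) did.

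Of 31 regulators and partners of the class IIa enzymes 4 rose and 5 fell, or 29.0% (median 0.00071). The calcium/calmodulin-dependent kinase Camk2a rose 1.86-fold (log2 change 0.89, SE 0.0526, adjusted p = 5.24e-08), with 6.75 to 6.84 in shTardbp and 5.83 to 6.002 over both controls. Camk2b rose against shLuciferase (0.89, adjusted p = 4.33e-06) but was at 0.071 against shGFP (adjusted p = 0.596). The transcription factor Mef2b, of the family that class IIa enzymes repress, fell (-0.54, SE 0.0799), with -0.83 against shGFP and -0.24 against shLuciferase (adjusted p = 0.0894), as did the repressor Bcl6 (-0.68, SE 0.0943), with -1.04 against shGFP and -0.31 against shLuciferase (adjusted p = 0.0639). Both were higher in shGFP than in shLuciferase, as Hdac9 was.

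Of 31 Hdac6 partners and substrates 8 rose and 8 fell (51.6%, median 0.034). The dynein heavy chain Dync1h1, which drives aggresome transport, rose 1.79-fold (0.84, SE 0.0922), and the tau gene Mapt rose 1.77-fold (0.83, SE 0.0768). The mitotic activator Cdc20 fell 2.19-fold (-1.13, SE 0.0881) and the mitotic kinesin Kif11 1.38-fold (-0.47, SE 0.0728). Adjusted p-values of these 4 were at most 0.000221. The list includes Tardbp itself.

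Of 6 measured sirtuins, the NAD-dependent deacetylases, Sirt6 fell (-0.40, SE 0.0632, adjusted p = 0.000265), the mitochondrial Sirt3 rose (0.36, SE 0.0835, adjusted p = 0.00459), and the other 4 did not pass. The tubulin deacetylase Sirt2, which shares a substrate with Hdac6, was at -0.20 (adjusted p = 0.0889), and Sirt1 at -0.19 (0.196). Sirt2 passed with array weights (0.0101), without shGFP 1 (0.0429) and without shLuciferase 4 (0.0349), but was at 0.015 with the letter as a block, and Sirt1 passed without shGFP 1 (0.0452). Sirt3 was at 0.18 against shGFP alone (adjusted p = 0.208). Of 23 acetyltransferase genes and subunits 5 rose and 6 fell (median 0.047). Myst2, now Kat7 (-0.41, SE 0.0597), and Ing5 (-0.44, SE 0.0807) fell, and Ing4 (0.32, SE 0.0588) and Myst1, now Kat8 (0.38, SE 0.0808), rose. Of 20 bromodomain readers of acetyl marks 3 rose and 4 fell (median 0.035). Atad2 (-0.45, SE 0.0723) and Brd3 (-0.27, SE 0.0645) fell, and Prkcbp1, now Zmynd8 (0.29, SE 0.0520), and Baz2a (0.30, SE 0.0552) rose. The Brd3 call ended when the shift of its neighbours was subtracted (adjusted p = 0.502), and Sirt3, Myst1, Myst2 and Ing4 lost theirs with the letter as a block. By the median of probe sets, Sirt3 (0.0572), Myst1 (0.0813), Brd3 (0.0957) and Ing5 (adjusted p = 0.135) did not pass, with Ing5 at -0.28.

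**Figure D5:**
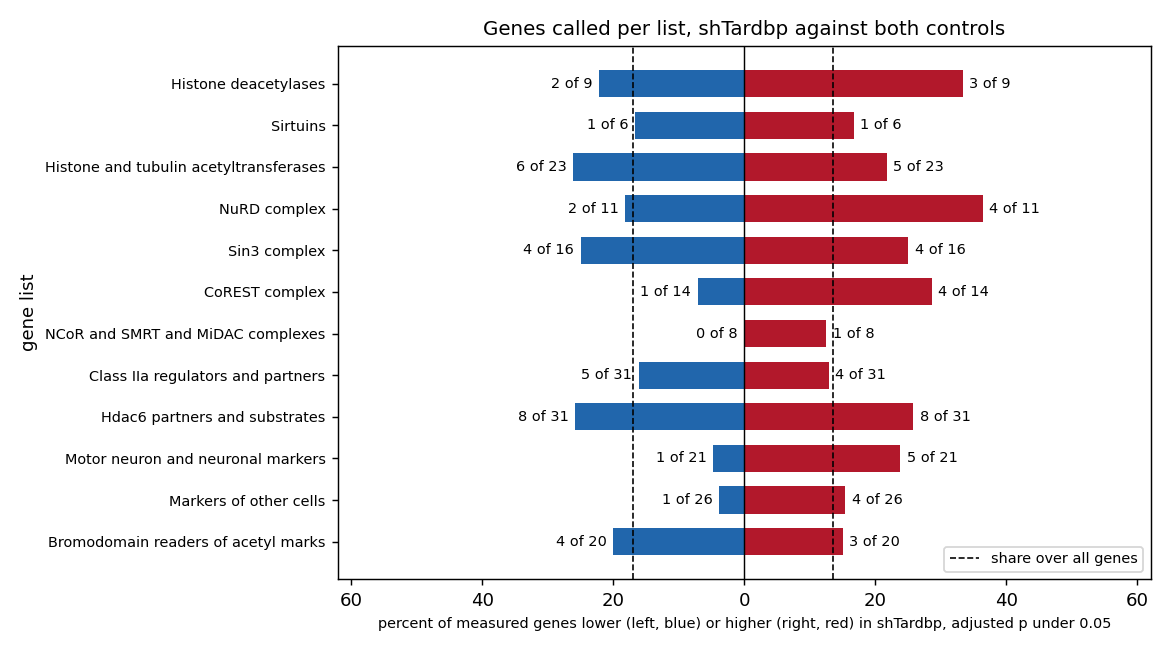
Percent of the measured genes of each list that passed the threshold in shTardbp against both controls, higher to the right (red) and lower to the left (blue), with the counts beside the bars. Dashed lines give the shares over all genes, 13.5% higher and 17% lower. Of the deacetylases 3 of 9 were higher and 2 lower.

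Of the marker lists, 5 of 21 neuronal genes rose and 1 fell, or 28.6%, where 30.5% of all genes passed. Syp, of synaptic vesicles, rose (0.69, SE 0.0809), as did Slc18a3 (0.63, SE 0.0920, 1 probe set) and Mapt, while Elavl4 fell (-0.53, SE 0.0584). Between the controls 2 of the 21 neuronal genes were higher in shGFP and 4 lower (28.6%), beside 11.1% of all genes. Of 26 markers of other cells 4 rose in shTardbp and 1 fell against both controls, or 19.2%. The fibroblast proteoglycan Dcn fell (-1.61, SE 0.0878), with means of 5.35 in shTardbp, 7.53 in shGFP and 6.38 in shLuciferase, in the same order of groups as Hdac9. Pdgfrb (0.41), Pecam1 (0.41) and Mbp (0.24) rose, but Pdgfrb was at 0.039 against shGFP (adjusted p = 0.822) and Mbp lost its call without shTardbp 3 (0.21, adjusted p = 0.0569), by the median of probe sets (0.16, adjusted p = 0.296) and with the neighbours' shift subtracted (0.039, adjusted p = 0.754). With the letter as a block Slc18a3, Pdgfrb and Mbp lost their calls. The part of these markers in the deacetylase changes was not tested.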

How the data were processed

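The 11 deposited arrays hold log2 values for 194293 probe sets. The submitters' processing notes list Partek and RMA, without versions. Per the labels' protocols, RNA was amplified with the Ambion WT Expression Kit and biotin-labelled for Affymetrix arrays. Other normalization settings and the genome build were not given in the sources used here, so RefSeq (GRCm38.p6) served for gene order, names and promoter sequences only.

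Probe sets with exactly 1 symbol in the platform annotation were averaged per gene (1328 had several symbols, 13469 none). A single model of the 3 groups was fitted over 15803 genes (limma 3.58.1, lmFit and eBayes, R 4.3.3). No low genes were removed. Benjamini-Hochberg adjustment ran across all of them, with a threshold of 0.05. Usage, a probe set minus the mean of the rest of its gene, was tested likewise on 132077 probe sets above the 25th percentile, in genes with at least 3 of them. The fits were also run on simulated data with independent noise on each array. Those data held no difference between clones or code letters, so they could not test for either. No arrays held identical values.

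Members and lists were chosen with earlier results of these data known. The rule for names took the members, Tardbp, the 4 genes per list with the smallest adjusted p, the 5 genes most like Hdac6 and Hdac9 in pattern (SD within 25%), member probe sets by usage, and the nearest genes of members that passed, given one by one for Hdac3. Hdac10, the probe sets with the largest change, Twistnb, Atxn7l1, Ahr, Agr3, Isl1 and Lhx3 were added after their values were seen. Alternatives changed the summary of probe sets, filters, normalization, array weights, blocks, neighbours and single arrays.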

Additional observations from a re-analysis of the deposited data

Results flagged for a closer look

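Of 20 groups of 4 arrays examined (the shTardbp and shGFP values of the 9 deacetylases and Tardbp), 1 held an array far from the others. Hdac4 was at 8.57 in shTardbp 3, against 8.69 to 8.71 in the other 3 shTardbp arrays, a gap of 0.838 of the group's range, where the limit for 4 arrays is 0.829. Chance flags about 1 in 20 such groups.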

How the results depend on the processing

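The count of 5 deacetylase genes against both controls ran from 4 to 6 over 22 alternatives, and Hdac9 and Hdac11 passed in all 22. When a gene's value was the median of its probe sets, 2 genes passed against shGFP, 1 between the controls, and 42 partner genes against both. Blocking on the code letter of the arrays, 3 passed against shGFP and 37 partner genes against both controls. Over all genes 2509 of 15803 passed against both controls with this block, beside 4825 without it. The block turned the Hdac6 change to 0.21 against both controls, 0.29 against shGFP and 0.14 against shLuciferase. The same block turned Hdac2 against shGFP (0.043), Hdac4 against shLuciferase (0.043), Sirt2 (0.015) and Zbtb33 (-0.21). Against shGFP, Hdac6 also turned with repeated quantile normalization (0.000791), centring (0.00844), array weights (0.026) and the neighbours' shift subtracted (0.0088). Leaving out single arrays gave Hdac6 -0.047 (without shGFP 5) to 0.022 (without shGFP 1) against shGFP, and -0.16 (without shLuciferase 4) to 0.014 (without shLuciferase 1) against shLuciferase. Subtracting the neighbours' shift, with or without protocadherins among them, turned Hdac2 against shGFP (0.042), Hdac4 against shLuciferase (0.024) and Hdac5 against shGFP (-0.037). With protocadherins included, Hdac3 was at -0.0049 against both controls and -0.040 against shLuciferase, and Rell2 at -0.12 (-0.035 without them). The alternative without protocadherins was chosen after seeing the data. Between the controls, leaving out single arrays gave 1 (without shLuciferase 1) to 4 genes (without shLuciferase 4). The usage count of 2 became 7 with diffSplice, where 3195 of all 132077 probe sets passed, beside 1875 in the main usage test. It became 0 among probe sets above the median level and 1 against the median of the other probe sets. With the letter block it was 0, and with single arrays left out 1 to 2. The cause of these moves was not tested. With the replicate number as a block, 5 genes passed against both controls, 5 against shGFP, 4 against shLuciferase and 3 between the controls, as without it. Correlations of same-numbered arrays ran from -0.06 to 0.26, so the numbers were not taken to pair the arrays.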
